A study of Mus musculus with 4 samples.

Results

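Proteins that bind cytokine mRNAs and set how long these last were examined in NKT cells of the small intestinal lamina propria (SI-LP). The 10 genes were *Zfp36*, *Zfp36l1* and *Zfp36l2* of the ZFP36 family, the Regnases *Zc3h12a* and *Zc3h12d*, the Roquins *Rc3h1* and *Rc3h2*, and *Arid5a*, *Elavl1* and *Khsrp*. They were chosen by name, with earlier results of these data known, and all 10 are among the 25239 genes of the deposited table. NKT cells, which recognize lipids on CD1d, were sorted from WT C57BL/6Jax mice by TCRβ and a PBS-57-loaded CD1d tetramer, with B220, CD11b, CD11c and CD8 used to exclude other cells. The mice were 7 to 10 weeks old, of both sexes, and untreated apart from an injection of an anti-ARTC2 nanobody shortly before the tissue was taken. Bulk RNA-seq was performed on 4 libraries of this one condition. Their titles mark replicates 3 and 4 as First and replicates 1 and 2 as Second, which is read here as a first and a second experiment. The comparisons that the labels allow are therefore among genes within a library, and among libraries of this condition. The labels do not say how many animals gave cells to each library, so p-values refer to these libraries and not to animals.

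Many cytokine mRNAs carry AU-rich elements (AREs) or short stem-loops in the 3' UTR that make them short-lived. ZFP36 (also called TTP) and its relatives bind AREs and recruit the CCR4-NOT deadenylase, Regnases cut stem-loop RNAs, Roquins bind stem-loops and also recruit CCR4-NOT, and KHSRP brings ARE mRNAs to decay enzymes. ELAVL1 (HuR) binds AREs and often protects the mRNA, and ARID5A protects stem-loop mRNAs such as *Il6* and *Stat3*. NKT cells are known to hold *Ifng* and *Il4* mRNA before stimulation, so that control after transcription is part of how they make cytokines quickly.

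The mRNAs of several regulators carry the element that ZFP36 proteins bind. The ARE nonamer TTATTTATT was searched on the sense strand of the 3' UTR of each gene's canonical GENCODE transcript (GRCm39), with overlapping matches counted separately. It was found in 6 of the 10 regulator mRNAs. The 3' UTRs of all 10 had a median of 2188 bases. Of the 10863 tested genes with a 3' UTR (median 1375 bases), 9.15% held the nonamer. Sites are shown for the ZFP36 family because TTP is known to bind its own mRNA, for *Elavl1* because it held the most nonamers of the 10, and for *Tnf* and *Csf2* as textbook ARE mRNAs. Each line gives 29 bases of the sense strand, 5' to 3', with every complete nonamer in capitals.
Zfp36: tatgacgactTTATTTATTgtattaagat
Zfp36l1: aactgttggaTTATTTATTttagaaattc
Zfp36l2: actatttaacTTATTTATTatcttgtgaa
Elavl1: tgaaaaTTATTTATTTATTTATTTATTtt
Tnf: ttaTTATTTATTATTTATTTATTatttat
Csf2: aaatatTTATTTATTTATTTATTTATTtt

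All of these sites lie on the minus strand of GRCm39 within 1 exon, in the 3' UTR. They are at chr7:28076376-28076404 (*Zfp36*), chr12:80154941-80154969 (*Zfp36l1*), chr17:84492342-84492370 (*Zfp36l2*), chr8:4335784-4335812 (*Elavl1*), chr17:35418658-35418686 (*Tnf*) and chr11:54138151-54138179 (*Csf2*). Each ZFP36 family mRNA held 1 nonamer, and among tested 3' UTRs of similar length the share with any was 5.21% for *Zfp36*, 9.46% for *Zfp36l1* and 10.1% for *Zfp36l2*. *Elavl1* held 8 nonamers in 7024 bases, 4 of them overlapping in the stretch shown, where 27.8% of 3' UTRs of similar length held at least 1. *Rc3h2* held 2 and *Rc3h1* held 1, in 3' UTRs of 6336 and 7181 bases. Among 3' UTRs of similar length, 23.3% and 28.5% held at least 1. *Zc3h12a*, *Zc3h12d*, *Arid5a* and *Khsrp* had no match to these letters. Of 29 mRNAs listed as known for ARE or stem-loop control (median 3' UTR of 637 bases), 10 held the nonamer. *Tnf* held 5 and *Csf2* and *Cxcl2* 4 each, while *Ifng* held no nonamer and 6 of the shorter ATTTA pentamers, and *Il4* no nonamer and 2 pentamers. A match is a description of the sequence and was not measured as binding.

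**Figure D1:**
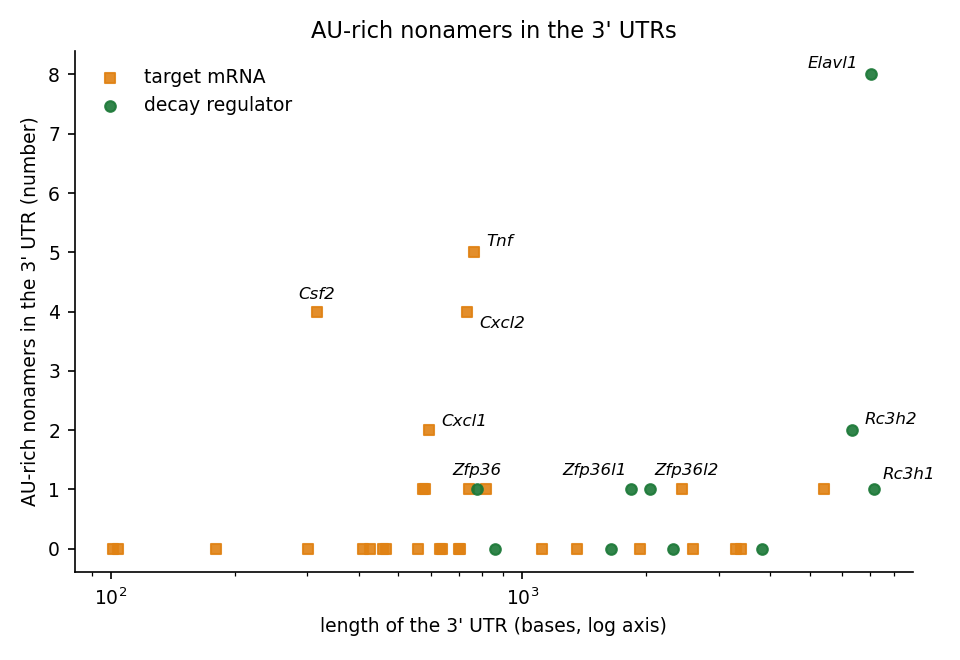
Number of ARE nonamers in the 3' UTR (vertical axis) against the length of the 3' UTR in bases (log axis) for the 10 decay regulators (circles) and 29 target mRNAs (squares). *Elavl1* stands highest with 8 nonamers, and *Tnf* has 5 in 764 bases.

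The libraries held 3882803 to 8732858 counts on genes, so the smallest level that 3 counts can show was 0.287 to 0.750 CPM (counts relative to the library total, adjusted with edgeR's TMM factors). All 9 T cell markers, such as *Cd3e*, were found in every library; their part of all counts was 0.327%, 0.138%, 0.407% and 0.191% in replicates 1 to 4. The libraries differed in RNA of other cells: 21 epithelial markers took 0.104%, 1.02%, 0.0225% and 2.98%, and 6 plasma cell markers 0.655%, 0.839%, 0.0114% and 0.0387%. Of these shares that of 0.0114% has the widest 95% Wilson interval for its size, 0.0105% to 0.0123%, which covers counting error only. In TPM the T cell markers ran from 36.2 (*Cd247*) to 2514 (*Cd3e*), the epithelial markers from 6.88 (*Lgr5*) to 10737 (*Lyz1*) and the plasma cell markers from 27.4 (*Tnfrsf17*) to 4573 (*Jchain*), as means over the libraries. B cell, myeloid, stromal and mast cell markers each took at most 0.0200% of any library, and 3 of 7, 7 of 11, 7 of 9 and 1 of 6 of them had 10 counts in 2 libraries or more; *Cd79a*, *Lyz2*, *Dcn* and *Kit* were the highest and *Blk*, *Adgre1* and *Cdh5* the lowest of those lists. In bulk RNA, fewer cells of a type and less RNA per cell cannot be told apart.

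The ZFP36 family dominated the regulators. In TPM, which corrects for gene length and so allows genes to be compared, *Zfp36* was the most abundant of the 10 with 796 ± 335 (SD, n = 4), followed by *Zfp36l1* with 375 ± 134 and *Zfp36l2* with 367 ± 152. Together the 3 genes summed to 1667, 1472, 1394 and 1618 TPM in replicates 1 to 4, which was 81.6% ± 3.53 (SD, n = 4) of the summed TPM of the 10 regulators. In every library all 3 stood between the percentiles 92.4 and 99.0 of the 11689 genes tested, those with at least 10 counts in 2 or more libraries. No exon of the 10 regulators overlaps an exon of another gene in the table, so counting without strand does not mix them with a neighbour.

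*Zfp36* (GRCm38, chromosome 7, 28376784 to 28379228, minus strand) encodes TTP, which is itself induced when T cells are activated. It reached 831, 1065, 315 and 973 TPM in replicates 1 to 4. Replicate 3 was lowest, and the ranges of the first and the second experiment overlapped. In CPM the mean was 504 ± 203 (SD, n = 4), with a ratio of 3.04 between the highest and the lowest library that fell to 1.41 without replicate 3. By CPM, the 4 libraries stood in the same order for *Zfp36* as for the share of epithelial markers, as did 4.88% of all genes tested; the part of epithelial RNA in the level of *Zfp36* was not tested.

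*Zfp36l1* (chromosome 12, 80107760 to 80113013) and *Zfp36l2* (chromosome 17, 84183928 to 84187947) encode the relatives that act in lymphocyte development and quiescence. *Zfp36l1* had 435, 218, 526 and 319 TPM, and *Zfp36l2* had 401, 188, 553 and 327 TPM. Both were highest in replicate 3 and lowest in replicate 2, and the ratio of *Zfp36l1* to *Zfp36l2* stayed between 0.951 and 1.16 in the 4 libraries. *Zfp36* ran otherwise: its ratio to *Zfp36l2* was 2.07, 5.66, 0.570 and 2.98. Its share of the family's TPM was thus 49.8%, 72.4%, 22.6% and 60.1%, while the family's sum was 1538 ± 127 TPM (SD, n = 4), lowest in replicate 3. In CPM the family summed to 1396, 1036, 1665 and 1538, highest in replicate 3, so that the order of the libraries by this sum depends on the scale.

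**Figure D2:**
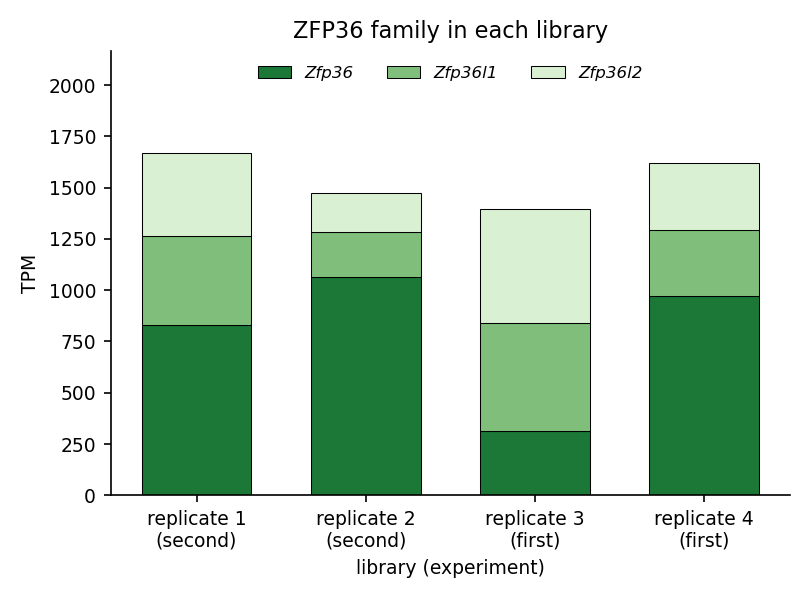
Summed TPM of the ZFP36 family in each library, as stacked bars of *Zfp36*, *Zfp36l1* and *Zfp36l2*. The totals lie between 1394 and 1667 TPM, while *Zfp36* makes up 22.6% of the bar in replicate 3 and 72.4% in replicate 2.

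The Regnases lay far lower and differed from each other. *Zc3h12a* (chromosome 4, 125118414 to 125127881) encodes Regnase-1, an endonuclease that MALT1 cleaves after T cell receptor signals. It had 31.7, 43.8, 90.8 and 45.8 TPM, so that replicate 3 stood highest and both libraries of the first experiment stood above both of the second. *Zc3h12d* (chromosome 10, 7832470 to 7870397), which encodes Regnase-4, was the lowest of the 10 with 7.60 ± 7.54 TPM (SD, n = 4).

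*Zc3h12d* rested on 24, 222, 1 and 78 counts in replicates 1 to 4, and replicate 3 was therefore under the 3 counts taken as the detection floor. It was 87.0 times as high in replicate 4 as in replicate 3 (exact 95% interval of the counts 15.2 to 3481), and 6.37 times as high in replicate 2 as in replicate 1 (4.17 to 10.1). These intervals, like the floor, cover counting error only, since amplified reads without molecular identifiers are not independent molecules. The 2 libraries high in *Zc3h12d* were those with the larger share of epithelial markers (1.02% and 2.98% against 0.104% and 0.0225%), and the part of these cells in its level was not tested. With replicates 1 and 3 alone, a choice made after seeing the data, its mean was 1.78 CPM in place of 11.1. These are the libraries where *Zc3h12d* was lowest, so this mean could only fall and says nothing on the source of the counts.

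The Roquins bind the same kind of stem-loops as Regnase-1. *Rc3h1* (chromosome 1, 160906411 to 160974976), which encodes Roquin-1, had 87.5, 92.9, 70.3 and 49.3 TPM. It was among the most even of the 10, with 322, 332, 316 and 218 CPM, and stood lowest in replicate 4. *Rc3h2* (chromosome 2, 37370071 to 37422903), the paralog that can stand in for it, had 28.6, 40.3, 18.9 and 15.0 TPM. *Rc3h1* exceeded *Rc3h2* in 4 of 4 libraries, by 2.31 to 3.71 times. Both genes were higher in each library of the second experiment than in each of the first, for *Rc3h1* with only 322 against 316 CPM in replicates 1 and 3.

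*Khsrp* and *Elavl1*, of opposite roles at AREs, were the steadiest regulators along with *Rc3h1*. *Khsrp* (chromosome 17, 57021049 to 57031507) had 121, 87.8, 99.4 and 78.3 TPM and 141 ± 24.5 CPM (SD, n = 4), with a ratio of the highest to the lowest library of 1.42. *Elavl1* (chromosome 8, 4284782 to 4325100) had 66.2, 46.7, 61.3 and 38.8 TPM and 117 ± 29.3 CPM (SD, n = 4), with a ratio of 1.65. *Khsrp* stood above *Elavl1* in 4 of 4 libraries, by 1.62 to 2.02 times. Over all genes tested with more than 3 counts in every library, the median of that highest-to-lowest ratio was 3.58.

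*Arid5a* (chromosome 1, 36307733 to 36324029), the counterpart of Regnase-1 at stem-loops, had 27.4, 15.1, 68.1 and 26.4 TPM. As for *Zc3h12a*, replicate 3 was highest. With a ratio of 5.69 between the highest and the lowest library, it was the most variable regulator after *Zc3h12d*; the ratio was 2.17 without replicate 3 and 3.04 without replicate 2. *Zc3h12a* exceeded *Arid5a* in 4 of 4 libraries, by 1.16, 2.91, 1.33 and 1.74 times.

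In the order of mean log2(TPM + 1), the regulators ran *Zfp36*, *Zfp36l1*, *Zfp36l2*, *Khsrp*, *Rc3h1*, *Elavl1*, *Zc3h12a*, *Arid5a*, *Rc3h2* and *Zc3h12d*. Of the 9 neighbouring pairs, 4 kept their order in every library. *Zfp36l2* stood above *Khsrp* by 1.83 ± 0.58 log2 units (SD, n = 4), *Rc3h1* above *Elavl1* by 0.48 ± 0.34, *Zc3h12a* above *Arid5a* by 0.72 ± 0.56 and *Rc3h2* above *Zc3h12d* by 2.21 ± 1.73. In 4 other pairs the mean difference was within its SD: *Zfp36* and *Zfp36l1*, *Zfp36l1* and *Zfp36l2*, *Elavl1* and *Zc3h12a*, and *Arid5a* and *Rc3h2* therefore did not differ beyond their spread. The remaining pair, *Khsrp* and *Rc3h1*, differed by 0.38 ± 0.32 and turned in replicate 2. Exact two-sided permutation p-values of the 9 pairs ran from 0.125, the smallest that 4 libraries allow, to 0.875, so that no pair could pass a threshold of 0.05.

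**Figure D3:**
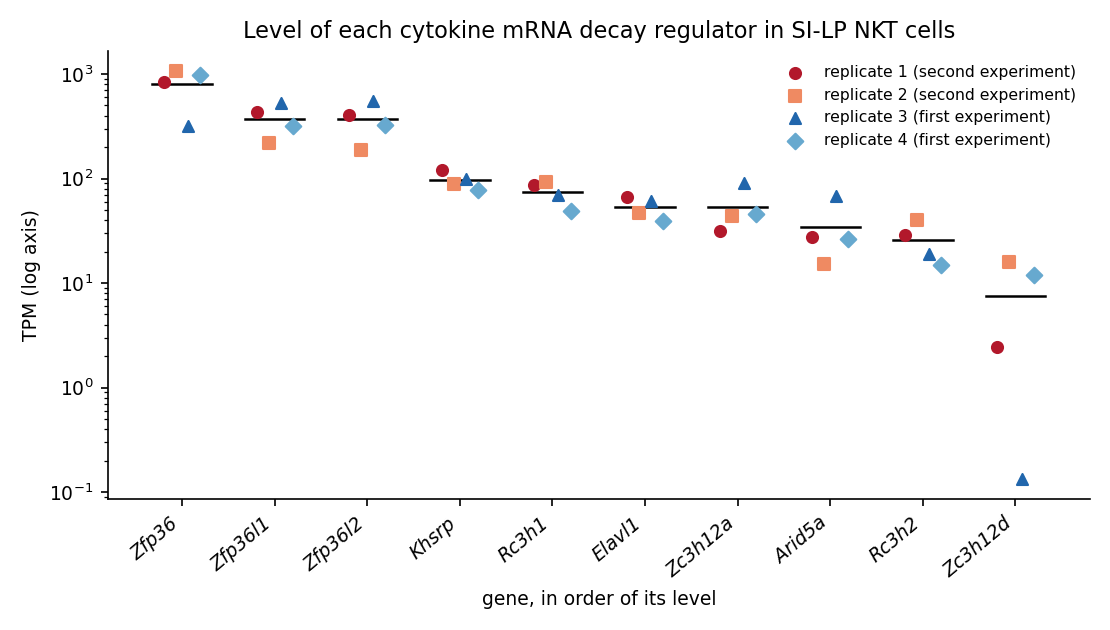
Level of each regulator in TPM (log axis) in the 4 libraries, with colours and symbols for the replicates and a line at the mean. The ZFP36 family lies between 188 and 1065 TPM and all other regulators at or below 121 TPM, with *Zc3h12d* in replicate 3 at 0.134 TPM from 1 count.

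The experiments were then compared, with the difference between them judged against the spread within them. By the quasi-likelihood method of edgeR, with p-values adjusted after Benjamini and Hochberg over all genes tested, 0 of the 10 regulators and 0% of all genes tested passed an adjusted p of 0.05. At an unadjusted p under 0.05, 0 regulators and 248 of the 11689 genes tested were counted, and with DESeq2 0 regulators and 0.351% of all genes tested had an adjusted p under 0.05. Between the second and the first experiment, *Arid5a* differed by -1.45 log2 units (SE 0.77) and *Zc3h12a* by -1.16 (SE 0.74), each with an edgeR adjusted p of 0.9997. *Rc3h2* differed by 0.72 (SE 0.62), *Zfp36* by 0.26 (SE 0.72), *Zfp36l1* by -0.67 (SE 0.65) and *Zfp36l2* by -0.87 (SE 0.68). *Khsrp*, at -0.07 (SE 0.55), and *Elavl1*, at -0.13 (SE 0.59), lay nearest to 0. The median absolute difference was 0.49 log2 units over the regulators and 0.67 over all genes tested.

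Both libraries of the second experiment exceeded both of the first for 2 regulators, *Rc3h1* and *Rc3h2*, and for 14.7% of all genes tested. For *Zc3h12a* and *Arid5a* they lay below both, as for 14.4% of all genes tested. Replicates 1 and 2, of the second experiment, also had the larger shares of plasma cell markers (0.655% and 0.839%). Replicates 3 and 4 had 0.0114% and 0.0387%. The part of these cells in the differences between the experiments was not tested.

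Within the experiments, replicates 4 and 2 had larger shares of epithelial markers than replicates 3 and 1, respectively. *Zfp36* was higher by 1.61 log2 units (log2 CPM with a prior count of 0.5) in replicate 4 than in 3, and by 0.32 in replicate 2 than in 1. *Zfp36l1* differed by -0.74 and -1.04, *Zfp36l2* by -0.78 and -1.13 and *Arid5a* by -1.39 and -0.91 in the same comparisons. *Elavl1* and *Khsrp* also lay below 0 in both, by -0.36 to -0.68 log2 units. *Zc3h12a*, *Rc3h1* and *Rc3h2* had opposite signs in the first and the second experiment.

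*Zc3h12d* was the single regulator that was higher by over 1 log2 unit in both comparisons, which held for 19.3% of all genes tested, and 0 regulators were lower by as much in both, against 8.49% of all genes tested. The median of all genes tested was 0.09 and 0.13, that of the 9 T cell markers -1.48 and -1.04 and that of the 21 epithelial markers 5.83 and 2.78. Scaled to the T cell markers, the median of all genes tested moved to 1.61 and 1.42. The differences of all 10 regulators were then above 0 in both comparisons, as these medians were, so this does not set the regulators apart. The share of all genes above 0 in both was not counted. Any one scaling shifts all genes of a comparison alike, so the place of a regulator relative to the median of all genes does not depend on it. By library, *Zfp36l1*, *Zfp36l2*, *Elavl1* and *Khsrp* stood in the same order as the share of T cell markers (replicates 3, 1, 4, 2), as did 6.14% of all genes tested; this order was compared after the values were seen, and the part of the T cell share in these levels was not tested.

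**Figure D4:**
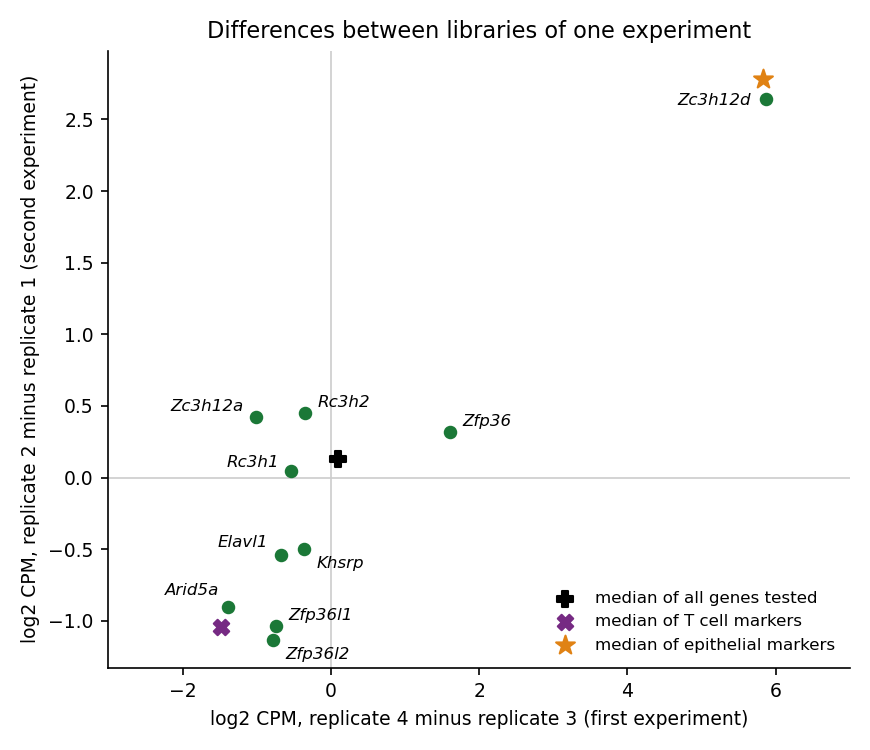
Difference in log2 CPM between replicates 4 and 3 (horizontal) and between replicates 2 and 1 (vertical) for each regulator (circles), with the medians of all genes tested, of the T cell markers and of the epithelial markers. *Zc3h12d* lies by the epithelial median (5.83 and 2.78), and *Arid5a* nearest to the T cell median (-1.48 and -1.04).

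Likeness among the regulators was described by the root mean square difference of their log2 CPM, each centred on its mean over the 4 libraries, which all share depth and scaling. *Elavl1* and *Khsrp* were the most alike, at 0.11, with 61 genes nearer to *Elavl1* than *Khsrp* was. *Zfp36l1* and *Zfp36l2* followed at 0.12, with 31 genes nearer to *Zfp36l1* than *Zfp36l2* was. *Zfp36* was 1.12 from *Zfp36l1* and 1.21 from *Zfp36l2*. The 3 genes nearest to *Zfp36* among the 11688 others were *Ttc27*, *Wnt2b* and *Naa25*, at 0.05 to 0.06. *Ttc27* had 44.7, 57.5, 19.5 and 63.7 CPM.

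Of 9 paralogs of the regulators, 6 had 3 counts or fewer in at least 1 library and the other 3 were counted in every library. *Zfp36l3* had 0 counts in every library, *Elavl2* at most 1, *Elavl4* at most 4 and *Elavl3* at most 8. *Zc3h12c* had 0, 29, 10 and 16 counts, and *Zc3h12b* had 124, 2, 1 and 0. *Arid5b* had 512, 470, 255 and 283 counts, and *Fubp3* had 161, 326, 125 and 93. *Fubp1*, a relative of *Khsrp*, was the most abundant of the 9 with 95.2 ± 30.02 TPM (SD, n = 4), beside 96.5 ± 18.2 TPM for *Khsrp*; 4 of the 9 passed the filter on low counts.

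The regulators were then set beside the machinery that they recruit. Of the 10 regulators, 9 stood above the middle of the 11689 genes tested by mean percentile, with a median percentile of 76.9 against 48.1 for all genes tested. The deadenylase list held 18 genes: those of CCR4-NOT and PAN, and also *Parn*, *Tob1*, *Tob2*, *Btg1* and *Btg2*. All 18 passed the filter on low counts and had over 3 counts in every library, with a median percentile of 77.5. The 5 genes of this list in the top 10% were *Btg2*, *Tob2*, *Tob1*, *Btg1* and *Cnot1*, so its median is not that of the deadenylase subunits alone. The lowest of the 18 was *Pan2*, of the PAN2-PAN3 deadenylase, with 18.6 ± 10.4 TPM (SD, n = 4). The highest was *Btg2*, which links RNA-binding proteins to CCR4-NOT, with 624 ± 228 TPM. The 17 genes of decapping and 5' to 3' decay had a median percentile of 57.8, from the decapping enzyme *Dcp2* with 14.7 ± 7.38 TPM (SD, n = 4) to the helicase *Ddx6* with 245 ± 84.1 TPM; 15 of them had over 3 counts in every library, and *Lsm5* and *Lsm7* each had 2 in replicate 1. The 15 genes of the RNA exosome and SKI complex stood lowest, at 44.2, from *Dis3l* with 6.27 ± 2.74 TPM (SD, n = 4) to *Exosc10* with 43.6 ± 17.6 TPM. In this list 12 genes had over 3 counts in every library, while *Exosc6* and *Exosc7* had 1 count in replicate 1 and *Exosc5* had 1 in replicate 2.

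Of 12 other ARE-binding proteins, the highest was *Ybx1* with 660 ± 245 TPM (SD, n = 4) and the lowest *Tia1* with 11.2 ± 6.44 TPM, with a median percentile of 86.9. The 18 kinases, phosphatases and proteases that act on the regulators had a median of 77.0, from the ubiquitin ligase subunit *Btrc* with 16.1 ± 8.75 TPM (SD, n = 4) to *Ywhaz*, a 14-3-3 protein that binds phosphorylated TTP, with 1046 ± 319 TPM. In edgeR's test between the experiments, 0 genes of these lists and of the target list had an adjusted p under 0.05 in either direction.

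**Figure D5:**
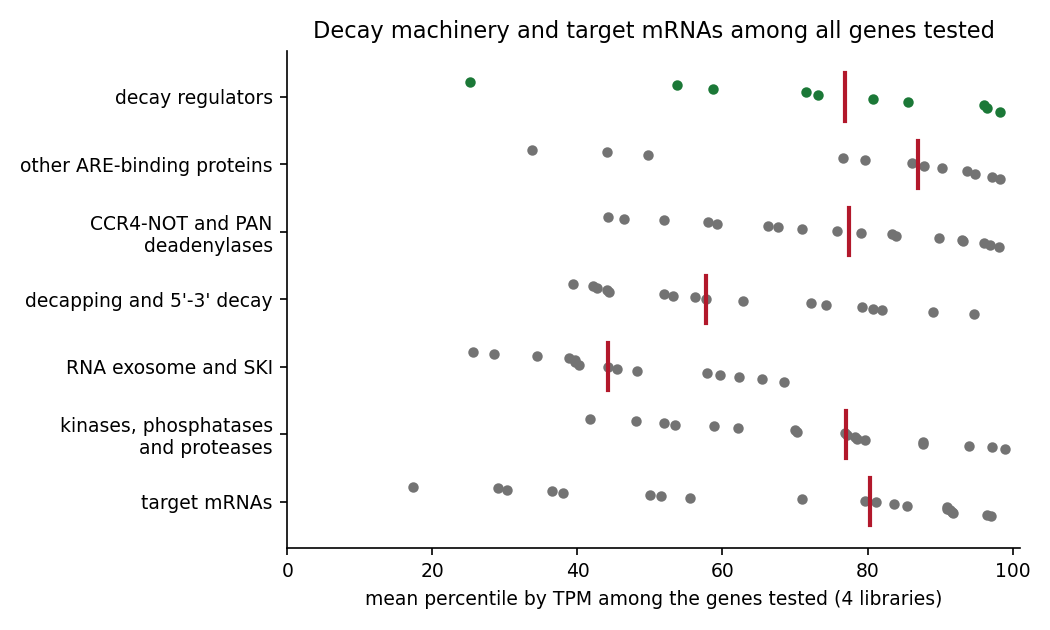
Mean percentile by TPM among the 11689 genes tested, over the 4 libraries, for the 10 regulators, 5 lists of decay machinery and the target mRNAs that passed the filter, 1 point a gene, with a red line at the median. The median of the regulators is 76.9, of the exosome and SKI genes 44.2 and of the other ARE-binding proteins 86.9.

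Of the 29 target mRNAs, 20 passed the filter, and 16 had more than 3 counts in every library. *Ifng* had 205, 90.3, 219 and 156 TPM, and *Il4* had 159, 24.8, 153 and 78.1 TPM. Both were lowest in replicate 2, as were *Zfp36l1* and *Zfp36l2*. Replicate 2 also had the smallest share of T cell markers (0.138%). How many of all genes were lowest there was not counted, and a link between these regulators and targets was not tested. The ratio of *Zfp36* to *Ifng* was 4.05, 11.8, 1.44 and 6.25 in replicates 1 to 4, above 1 in 4 of 4 libraries. *Tnf*, the classical TTP target, had 17.9, 17.1, 15.3 and 37.6 TPM and stood highest in replicate 4. *Icos*, a T cell costimulator that Roquin-1 and Regnase-1 repress, was the highest target with 493 ± 289 TPM (SD, n = 4), and *Ptgs2* was the lowest of those past the filter with 3.23 ± 2.69 TPM and 0 counts in replicate 4. *Stat3*, which ARID5A protects, had 158 ± 29.2 TPM (SD, n = 4).

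The other 12 targets with 3 counts or fewer in a library were mostly cytokines and chemokines. *Il2*, *Il3* and *Il17a* had 0 counts in all 4 libraries, which allows up to 0.287 to 0.750 CPM by library, and *Il6* had 1 count in replicate 4. *Il13* had 71, 1, 54 and 1 counts, high in the libraries with the larger T cell share. *Lta* had 1, 1, 30 and 0 counts, *Ccl3* 0, 1, 58 and 1 and *Ccl4* 7, 2, 20 and 2, all highest in replicate 3. *Il10* had 132, 71, 0 and 34 counts, *Cxcl1* 0, 0, 0 and 3, *Cxcl2* 220, 12, 27 and 2 and *Tnfrsf4* 51, 4, 0 and 0. The median within-experiment difference of the 20 targets past the filter was -0.81 and -1.25 log2 units, beside 0.09 and 0.13 for all genes tested and -1.48 and -1.04 for the T cell markers.

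The 14 immediate early and heat shock genes, which mark recent stimulation or handling of the tissue, took 0.531%, 0.719%, 0.592% and 0.532% of the counts, from *Ier3* with 39.3 ± 66.5 TPM (SD, n = 4) to *Hspa8* with 2832 ± 952 TPM. Among them *Egr1* had 226, 1107, 156 and 757 TPM, highest in replicates 2 and 4 and lowest in replicate 3, as was *Zfp36*. Replicates 2 and 4 also had the larger shares of epithelial markers. The median within-experiment difference of the 14 genes was -0.09 and -0.06 log2 units, against 2.26 and 2.25 for *Egr1*. Of the 14, 5 were higher by over 1 log2 unit in both comparisons, as were 19.3% of all genes tested, and 0 were lower by as much. *Egr1* was named after its values were seen, and its part in the level of *Zfp36* was not tested.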

How the data were processed

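RNA of sorted SI-LP NKT cells was measured in 4 libraries. The labels name a Nugen Ovation ultralow kit with paired reads on a HiSeq, while the study's methods name a NovaSeq. The authors deposited raw counts per gene: per the file headers, featureCounts 1.6.4 counted primary alignments of read pairs on exons of a RefSeq annotation, without a strand option. The methods name HISAT2 and GRCm39, but the processing notes name GRCm38.p6 and the deposited gene positions follow GRCm38, which gene coordinates use. The 3' UTR sites came from GENCODE and GRCm39. The table held 2 further library columns that match no label, and these were not used.

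CPM was computed with TMM factors of edgeR 4.0.16, and TPM with the gene lengths that the authors deposited. The 11689 genes that reached 10 counts in 2 libraries or more were tested by edgeR's quasi-likelihood method, second against first experiment. In 1 condition this contrast sets the difference between the experiments against the spread within them. DESeq2 1.42.0 was the alternative, as were other scalings and filters and leaving out each replicate. Total counts set a floor of 3 counts a library. *Rn45s*, a ribosomal RNA precursor, took 7.36% to 28.1% of counts, which TMM factors limit but TPM does not.

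The members and gene lists were chosen with earlier results of these data known. Named genes were the 10 regulators, their paralogs, the highest and lowest gene of each list, genes with an adjusted p under 0.05 (0 in these lists), the 3 genes most like the most abundant regulator and targets with 3 counts or fewer. *Egr1*, *Ifng*, *Il4*, *Tnf*, *Stat3* and 5 decay genes with 3 counts or fewer in a library were named after their values were seen, as were *Parn*, *Tob1*, *Tob2*, *Btg1* and *Cnot1*. A 3' UTR was called similar in length if at most 20% shorter or 25% longer. Tools were R 4.3.3, Python 3.11.15, pandas 2.3.3 and scipy 1.17.1.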

Additional observations from a re-analysis of the deposited data

Results flagged for a closer look

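Dixon's test for 4 values was applied to 76 sets of library values: the regulators in CPM and TPM, and in CPM their paralogs, the targets and the highest and lowest gene of each list. Of these 12 had 1 library far from the other 3, where about 3.8 would be by chance if the sets were independent and normally distributed. They are not, since the regulators enter in both CPM and TPM and some sets are mostly 0. The 2 numbers therefore cannot show an excess. Other genes of the marker lists were not examined in this way. Of the regulators, only *Rc3h1* stood out, with 218 CPM in replicate 4 against 316 to 332 CPM in the others. It was flagged in CPM only, and not in TPM (87.5, 92.9, 70.3 and 49.3 in replicates 1 to 4). Of the paralogs, *Fubp1* had 320.5 CPM in replicate 1 (207 to 213 in the others), *Zc3h12b* 17.2 CPM in replicate 1 from 124 counts (at most 0.224 in the others), *Elavl3* 2.00 CPM in replicate 4 from 8 counts and *Elavl4* 0.896 CPM in replicate 3 from 4 counts, each with 0 in the others.

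Of the targets, *Tnf* had 25.0 CPM in replicate 4 (9.17 to 10.3 in the others), *Ccl3* 12.99 CPM and *Lta* 6.72 CPM in replicate 3 (at most 0.250 and 0.139 in the others), and *Tnfrsf4* 7.08 CPM in replicate 1 (at most 0.382). The highest and lowest epithelial markers, *Lyz1* and *Lgr5*, had 21072 and 43.2 CPM in replicate 4, and the stimulation gene *Ier3* had 48.9 CPM in replicate 2.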

How the results depend on the processing

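The count of genes called between the experiments was 0 as reported, 60 with no filter on low counts, 41 with DESeq2 and 0 to 7 on leaving out a replicate (7 without replicate 3 and 6 without replicate 4), while the count of regulators called stayed at 0 in every setting tried. The log2 difference between the experiments turned with library size alone for *Elavl1* (0.14) and *Khsrp* (0.18). On leaving out a replicate it ran from -0.35 to 1.29 for *Zfp36* (below 0 without replicate 3), from -1.62 to 5.71 for *Zc3h12d* (below 0 without replicate 2 or 3), from -0.42 to 0.23 for *Elavl1* and from -0.30 to 0.15 for *Khsrp* (both above 0 without replicate 2 or 3). The 4 neighbouring pairs with one order in every library became 2 to 5 on leaving out a replicate (2 without replicate 1), and 5 with replicates 1 and 3 alone. The median percentile of the regulators, 76.9 as reported, was 86.9 by CPM, which favours long genes by its construction, and 75.5 to 78.2 on leaving out a replicate. The regulators higher by over 1 log2 unit in both within-experiment differences numbered 1, and 3 scaled to the T cell markers, where 45.6% of all genes tested were. The highest-to-lowest ratio of 5 regulators moved by over 1.5 times on leaving out replicate 2 or 3: without replicate 3 it was 1.41 for *Zfp36*, 2.19 for *Zfp36l2*, 1.74 for *Zc3h12a* and 2.17 for *Arid5a*, and without replicate 2 it was 1.67 for *Zfp36l1*, 1.72 for *Zfp36l2* and 3.04 for *Arid5a*. Where no reason is given, the cause was not tested. No paired analysis was possible because the design has a single group, so that no groups share replicate numbers. With 4 libraries and 1 count of *Zc3h12d* in replicate 3, depth limits that gene the most.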
